A study of Homo sapiens with 8 samples.

Results

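RNA of mock HCT116 cells was compared with RNA of mock PANC-1 cells. HCT116 is a human colorectal cancer line and PANC-1 is a human pancreatic cancer line. The comparison used the mock (Cy3) channel of 8 two-colour arrays of 60-base probes. Of 58201 probes other than controls, 25338 were well above background in Cy3 on all 4 arrays of at least 1 line, and these were the members. They represented 19529 of 43395 genes, each by its brightest probe.

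The study transfected each line with single mature miRNAs and hybridised that RNA in Cy5 against the mock in Cy3. In HCT116 these were the arrays for miR-139 (both strands) and miR-143 (both strands). In PANC-1 they were the arrays of miR-30c-5p and miR-30c-2-3p and of miR-30a-5p and miR-30a-3p. Mock cells of both lines had received no miRNA, and their label for transfection is "no transfection". The labels do not say which arrays shared a mock. The 2 arrays of a precursor were taken to share 1, because their Cy3 channels differed far less than those of different precursors, so each line was given 2 mocks, and nothing in the labels says that these were separate cultures. Each line is a single established cancer line and stands for no tissue. The labels give RPMI 1640 or DMEM as the medium without saying which line had which, so medium and line cannot be told apart. All HCT116 arrays lay in slide column 1 and all PANC-1 arrays in column 2, which therefore cannot be told apart from the lines.

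Epithelial cells are joined by E-cadherin (CDH1), desmosomes and tight junctions. They keep an apical and a basal side, and a set of transcription factors (GRHL, OVOL, ELF and EHF) and splicing factors (ESRP) maintains this state. Mesenchymal cells instead hold vimentin (VIM) filaments, N-cadherin (CDH2) and interstitial matrix. The repressors ZEB1 and SNAI1 switch epithelial genes off by binding E-boxes, short DNA motifs, in their promoters. Carcinoma lines can lie anywhere between these states.

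E-boxes with the letters CACCTG, or CAGGTG as read on the other strand, were searched in the RefSeq promoters (GRCh38.p14), which run from 250 bases before to 50 bases after the start of a gene. Both strands are covered by these letters. Of 27305 promoters, 5625 held a match (20.6%). A promoter was found for 17 of the 33 epithelial genes tested (51.5%), which is too few for a share over the list to be read. CDH1 and EPCAM were among the genes without one. Of the called epithelial genes on no PANC-1 array above background, 5 had a promoter, with 5 matches for CRB3, 3 for MYO5B, 2 for RAB25, 1 for DSC2 and 0 for EHF. The promoters of CRB3 and RAB25 are shown as examples with several matches, chosen after the matches were counted. The E-box letters are in capitals. The CRB3 window, chr19:6464021-6464320 on the plus strand, held 5 matches and the RAB25 window, chr1:156060910-156061209 on the plus strand, held 2. A match is a run of letters and was not tested as a binding site.
CRB3: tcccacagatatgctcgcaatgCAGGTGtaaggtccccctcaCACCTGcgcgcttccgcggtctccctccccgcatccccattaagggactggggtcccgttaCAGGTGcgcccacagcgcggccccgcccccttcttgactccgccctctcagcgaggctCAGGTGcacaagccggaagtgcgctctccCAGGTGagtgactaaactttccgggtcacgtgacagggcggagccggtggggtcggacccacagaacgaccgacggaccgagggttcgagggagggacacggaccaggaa
RAB25: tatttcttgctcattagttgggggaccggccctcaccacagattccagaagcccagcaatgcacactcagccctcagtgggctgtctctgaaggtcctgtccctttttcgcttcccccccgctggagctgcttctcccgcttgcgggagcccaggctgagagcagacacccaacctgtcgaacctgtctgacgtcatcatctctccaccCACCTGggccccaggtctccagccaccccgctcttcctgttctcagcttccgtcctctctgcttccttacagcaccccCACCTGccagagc

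Levels below are log2 of the Cy3 intensity after background subtraction and quantile normalisation, and a difference is HCT116 minus PANC-1 on that scale, with its standard error over 2 mocks per line. A gene was called higher in a line when the adjusted p of limma was under 0.05 and the difference was at least 2-fold. Where a gene was well above background on no array of a line, that line was given the floor of its arrays (2.41 to 2.51, log2) or its own higher value, and the fold is written "at least". On each array, 44.1% to 45.3% of spots were well above background, and no spot was saturated. The number of arrays limits the precision. The 2 arrays of a mock differed by a median of 0.0741 to 0.0827 (log2), the 2 mocks of PANC-1 by 0.136, the 2 mocks of HCT116 by 0.225, and arrays of the 2 lines by 0.582 to 0.616. Between the mocks of HCT116, 680 genes were at least 2-fold apart, against 179 between those of PANC-1. Fewer cells that express a gene and less RNA per cell cannot be told apart in these bulk samples.

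To determine how far the lines differed, calls were counted over all genes. There were 2823 genes higher in HCT116 (14.5%) and 2707 higher in PANC-1 (13.9%). The median difference was 0.04 and the median absolute difference was 0.56. A difference of at least 10-fold was found for 390 genes in HCT116 and 386 in PANC-1. Of the called genes, 709 were well above background in HCT116 and on no array of PANC-1, and 775 the reverse. With normexp background correction and an offset of 50, which draws dim signals together, the counts were 1145 and 1144.

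**Figure D1:**
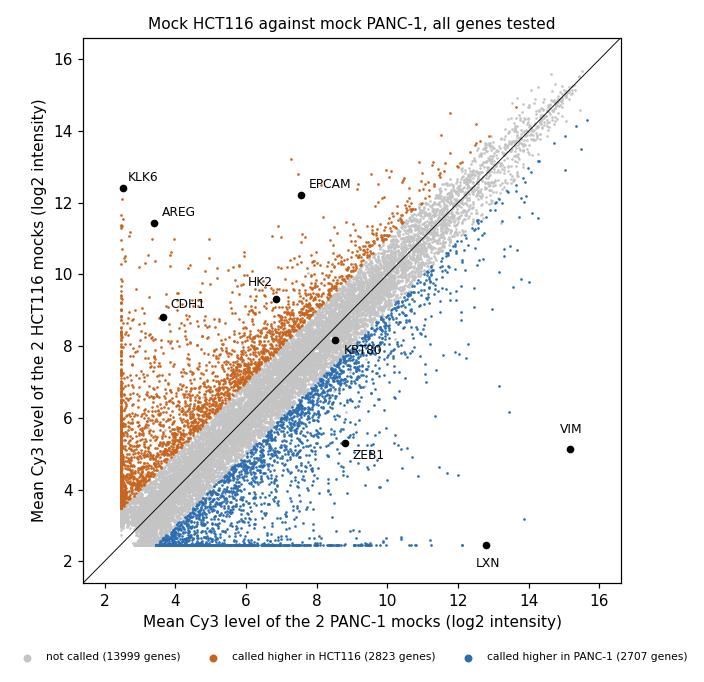
Each point is 1 of 19529 genes, with its mean level in the 2 PANC-1 mocks on the x axis and in the 2 HCT116 mocks on the y axis (log2 intensity). Called genes are coloured, 2823 higher in HCT116 and 2707 higher in PANC-1. The rows of points along the left and lower edges are genes at the floor in 1 line. KRT80 lies near the diagonal, and VIM, KLK6 and LXN lie far from it.

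The labels were compared with 4 markers. EPCAM, an epithelial adhesion protein, was at 12.14 and 12.28 in the HCT116 mocks and at 7.80 and 7.33 in the PANC-1 mocks (difference 4.65 ± 0.19, adjusted p = 0.000146). CDH1 was at 8.42 and 9.23 in HCT116 and at 4.58 and 2.73 in PANC-1, where 3 of 4 arrays were above background (5.17 ± 0.65, adjusted p = 0.0028). VIM was at 6.25 and 4.0 in HCT116 and at 15.14 and 15.20 in PANC-1 (-10.04 ± 0.71, adjusted p = 0.000545). Among these genes, the largest spread between mocks of a line was that of VIM in HCT116. ZEB1 was at 5.64 and 4.94 in HCT116 and at 8.82 and 8.80 in PANC-1 (-3.52 ± 0.26, adjusted p = 0.000606). A second ZEB1 probe gave -2.68 ± 0.20. The probes lie at chr2:47613894-47613953 (EPCAM), chr16:68869214-68869273 (CDH1), chr10:17278347-17279256 (VIM) and chr10:31818063-31818122 (ZEB1) on hg19.

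Epithelial genes were higher in HCT116 as a group. Of 33 tested, 28 were called higher in HCT116 and 1 in PANC-1 (84.8% and 3.03%, against 14.5% and 13.9% of all genes), with a median difference of 3.46. Of the 28, 12 were on no PANC-1 array above background. Genes that passed the filter only through the line where they were high had to differ and are counted here. Over the 18 with probes above background on all 8 arrays, 13 were higher in HCT116 and 1 in PANC-1, with a median of 1.64. The HCT116 counts were 24 to 29 with any 1 mock left out and 23 with an offset of 50, where the median was 1.6.

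Among adhesion genes, P-cadherin (CDH3) was at 10.14 and 10.64 in HCT116 and at 3.76 and 3.09 in PANC-1 (6.96 ± 0.30). The desmosomal genes DSP, DSG2 and DSC2 were higher in HCT116 by 1.81 ± 0.16, 2.68 ± 0.17 and at least 13.9-fold. JUP (plakoglobin), which anchors both kinds of junction, was called 2.15-fold higher in HCT116, but not without the HCT116 mock of miR-143 or either PANC-1 mock, nor with the processed signal. The desmosomal plakophilin PKP3 was not called (0.80 ± 0.14). PERP, also a desmosomal protein, was called the other way, at 10.97 and 11.36 in HCT116 and at 12.79 and 12.66 in PANC-1 (-1.56 ± 0.16).

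Of the transcription factors of this state, 7 of 8 tested were called higher in HCT116, as were both splicing factors. GRHL1 was not called (0.80 ± 0.22). EHF was at 8.16 and 8.53 in HCT116, at least 58.5-fold above PANC-1, and OVOL1 was at 7.45 and 8.28, at least 41.9-fold above. ELF3 was at 7.83 and 7.87 in HCT116 and at 3.11 and 2.64 in PANC-1 (4.98 ± 0.21). GRHL2 was at least 11-fold higher in HCT116, but its difference was 0.99 with an offset of 50, just under the 2-fold minimum. OVOL2 (1.18 ± 0.19) was not called at this offset either, nor without the PANC-1 mock of miR-30a. ESRP1, which sets epithelial splicing, was at least 21.7-fold higher in HCT116, whereas its relative ESRP2 was measured in both lines (1.33 ± 0.17).

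All 8 genes of trafficking and polarity were called higher in HCT116, though not under each alternative. PATJ (1.03) was not called under 3 other scalings or background corrections or with 3 of the 4 mocks left out, CDS1 (1.71) without either HCT116 mock, and MYO5B with an offset of 50. MAL2, which carries cargo to the apical membrane, was at 10.90 and 11.83 and at least 474-fold above PANC-1. RAB25, a small GTPase of apical recycling, was at 8.71 and 9.30 (at least 92.3-fold), and CRB3, an apical polarity protein, at 8.27 and 8.80 (at least 66.6-fold). The promoters of RAB25 and CRB3 are printed above. The membrane protease PRSS8 was at least 298-fold higher in HCT116, and the related protease ST14 and its inhibitor SPINT1 by 3.68 ± 0.16 and 4.56 ± 0.21. A second inhibitor of the same kind, SPINT2, was not called (-0.54 ± 0.17, adjusted p = 0.0506).

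**Figure D2:**
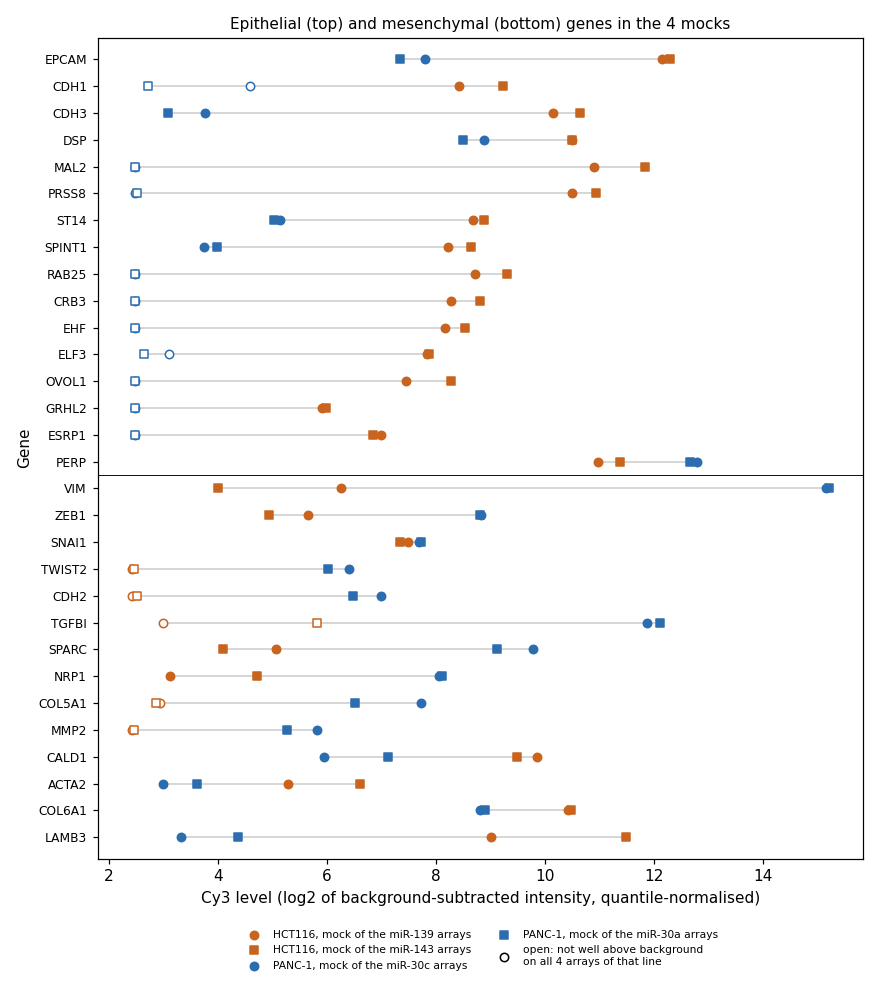
Levels of 30 genes (log2 intensity, x axis) in the 4 mocks, with orange for HCT116 and blue for PANC-1 and a grey line over the range of a gene. Open symbols mark lines in which the gene was not well above background on all 4 arrays. The HCT116 mocks lie to the right for all epithelial genes drawn except PERP, and to the left for the mesenchymal genes from VIM to MMP2, while CALD1, ACTA2, COL6A1 and LAMB3 lie the other way.

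Mesenchymal genes divided. Of 28 tested, 15 were called higher in PANC-1 and 5 in HCT116 (53.6% and 17.9%, against 13.9% and 14.5% of all genes), with a median difference of -1.63. Over the 21 with probes above background on all 8 arrays, 8 were higher in PANC-1 and 5 in HCT116 (median -0.58), and with an offset of 50 the counts were 13 and 3 (median -0.83). Another 10 genes of the list, among them ZEB2, SNAI2, TWIST1 and fibronectin (FN1), were not well above background on all 4 arrays of either line.

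Besides ZEB1, the transcription factor TWIST2 was at 6.4 and 6.02 in PANC-1 and on no HCT116 array above background (at least 13.6-fold). SNAI1 was at 7.49 and 7.33 in HCT116 and at 7.68 and 7.73 in PANC-1 and was not called (-0.29 ± 0.14, adjusted p = 0.144). CDH2 was at 6.99 and 6.47 in PANC-1, at least 19.1-fold above HCT116. The VEGF co-receptor NRP1 was higher in PANC-1 (-4.16 ± 0.52), as was the hyaluronan receptor CD44 (-1.83 ± 0.13). AXL, a receptor tyrosine kinase, was higher in PANC-1 (-1.43 ± 0.31, adjusted p = 0.0154), with an adjusted p of 0.103 without the PANC-1 mock of miR-30c and 0.0573 without that of miR-30a, at differences of -1.23 and -1.62.

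The matrix genes differed among themselves. TGFBI was at 3.00 and 5.82 in HCT116 and at 11.87 and 12.11 in PANC-1 (-7.58 ± 0.90). SPARC (-4.86 ± 0.39), the collagen COL5A1 (-4.23 ± 0.41) and COL1A1 (-2.13 ± 0.28) were also higher in PANC-1. MMP2, a matrix protease, was at least 8.55-fold higher there, but was not called with an offset of 50 (-0.79).

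The 5 genes of this list that were higher in HCT116 were LAMB3, CALD1, ACTA2, COL6A1 and COL6A2. LAMB3, a chain of laminin-332 in the epithelial basement membrane, was at 9.0 and 11.48 in HCT116 and at 3.33 and 4.37 in PANC-1 (6.39 ± 0.85). The actin-binding CALD1 was at 9.84 and 9.48 in HCT116 and at 5.95 and 7.12 in PANC-1 (3.13 ± 0.40). COL6A1 was at 10.42 and 10.46 against 8.80 and 8.89 (1.60 ± 0.12). ACTA2, smooth muscle actin, was higher by 2.65 ± 0.48, with an adjusted p of 0.0671 and a difference of 2.33 without the PANC-1 mock of miR-30c. With an offset of 50, ACTA2 and COL6A2 were not called.

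Markers of other cell types were low or shared. Of 16 on the list, 10 were not well above background, 1 had no probe, and 1 of 5 tested was called, the monocyte marker CD14 (-1.18 ± 0.20), which was not called without the PANC-1 mock of miR-30c or with an offset of 50. The fibroblast markers DCN and LUM passed the filter in neither line.

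Tight junction genes were called both ways. Of 22 tested, 7 were higher in HCT116 and 4 in PANC-1 (31.8% and 18.2%, against 14.5% and 13.9% of all genes). The 4 in PANC-1 passed the filter through that line alone, so they had to differ. Over the 15 with probes above background on all 8 arrays, 5 were higher in HCT116 and 0 in PANC-1. Those higher in HCT116 included CLDN7 (2.16 ± 0.25), CLDN3 (1.4 ± 0.18), the tricellular junction protein LSR (3.25 ± 0.23), the scaffold CGN (2.64 ± 0.34) and MARVELD3 (at least 12-fold). Those higher in PANC-1 were CLDN1 (at least 18.7-fold), CLDN11 (at least 10.2-fold), JAM3 (at least 10.5-fold) and CLDN10 (at least 6.92-fold), none of them above background on any HCT116 array. CLDN1 was at 5.54 and 7.80 in the PANC-1 mocks. Occludin (OCLN) was at 4.89 and 6.16 in HCT116 and at 5.41 and 5.55 in PANC-1 (0.04 ± 0.43). With an offset of 50, none of the 4 was called.

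Keratins form the intermediate filaments of epithelial cells, as vimentin does in mesenchymal cells. Of 14 tested, 4 were higher in HCT116 and 0 in PANC-1, by limma (28.6% and 0%, against 14.5% and 13.9% of all genes). Over the 12 with probes above background on all 8 arrays, the counts were 2 and 0. Another 18 were not well above background in either line. KRT23 was at 8.40 and 9.07 in HCT116 and on no PANC-1 array above background (at least 76.5-fold). The simple epithelial pair KRT8 and KRT18 was not called. KRT8 was at 11.86 and 12.53 in HCT116 and at 11.98 and 11.52 in PANC-1 (0.44 ± 0.27), and KRT18 at 13.70 and 14.05 against 14.32 and 14.15 (-0.36 ± 0.14). KRT19 was at 14.42 and 15.12 against 14.46 and 13.86 (0.61 ± 0.30). KRT8, KRT18 and KRT19 were well above background on all 4 PANC-1 arrays. KRT7 was higher in HCT116 (2.18 ± 0.62), with an adjusted p of 0.157 without the PANC-1 mock of miR-30c and 0.133 without that of miR-30a, at 2.09 and 2.27.

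KRT80, the keratin on which the study centred, was at 7.01 and 9.35 in the HCT116 mocks of miR-139 and miR-143 and at 8.39 and 8.65 in the PANC-1 mocks. The HCT116 mocks enclosed the PANC-1 mocks, and no difference was detected (-0.34 ± 0.74, adjusted p = 0.735). Without the HCT116 mock of miR-143, KRT80 was called higher in PANC-1 (-1.5), and without that of miR-139 the difference was 0.83. HK2, the first enzyme of glycolysis, was at 9.28 and 9.36 in HCT116 and at 6.49 and 7.20 in PANC-1 (2.48 ± 0.26, adjusted p = 0.00158).

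HOX genes are homeobox factors that lie in 4 clusters and give cells a position along the body axis. Of 30 tested, 17 were higher in PANC-1 and 6 in HCT116 (56.7% and 20%, against 13.9% and 14.5% of all genes). With an offset of 50 the counts were 12 and 2, and over the 22 with probes above background on all 8 arrays they were 11 and 4. The counts by cluster are given next. All 9 HOXC genes on chromosome 12 were called higher in PANC-1 (100%, against 13.9% of all genes). HOXC12 was at 7.68 and 7.25 in PANC-1 and on no HCT116 array above background (at least 32.5-fold), as was HOXC10 (at least 17.1-fold). HOXC13 was at 4.49 and 4.30 in HCT116 and at 8.95 and 8.53 in PANC-1 (-4.34 ± 0.20), and HOXC4 differed by -4.15 ± 0.27. HOXC5 was the smallest, at -1.04 ± 0.15, and fell short of 2-fold with an offset of 50 (-0.15) or 1 (-0.82), or without the HCT116 mock of miR-143 (-0.96) or the PANC-1 mock of miR-30c (-0.95).

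In the HOXB cluster on chromosome 17, 5 of 9 were higher in PANC-1 and 0 in HCT116. These are 55.6% and 0%, against 13.9% and 14.5% of all genes. HOXB2 was at 4.50 and 5.77 in HCT116 and at 10.47 and 10.33 in PANC-1 (-5.27 ± 0.42), and HOXB6 at 10.20 and 10.62 against 12.27 and 11.94 (-1.70 ± 0.20). HOXB13, at the other end of the cluster, was not called (0.82 ± 0.15).

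In the HOXA cluster on chromosome 7, 5 of 10 were higher in HCT116 and 2 in PANC-1. These are 50% and 20%, against 14.5% and 13.9% of all genes, and HOXA9 passed the filter through HCT116 alone. HOXA9 was at 10.84 and 10.19 in HCT116 and at 2.49 and 2.66 in PANC-1, where 1 of 4 arrays was above background (7.93 ± 0.25). By 2 of its other probes, which were on no PANC-1 array above background, it was at least 133-fold and at least 32.7-fold higher in HCT116, and by the last, measured in both lines, the difference was 2.19 ± 0.25. HOXA7 was at 9.70 and 9.05 against 3.37 and 3.14 (6.12 ± 0.26), and HOXA11 was higher by 2.55 ± 0.19. HOXA2, near the other end, was higher in PANC-1 (-2.48 ± 0.25). HOXA10 and HOXA13 lie beside these genes and were not called (0.59 ± 0.18 and 0.38 ± 0.29). In the HOXD cluster 2 of 9 were tested, HOXD3 higher in PANC-1 and HOXD8 in HCT116. With an offset of 50, HOXA2 (-0.65), HOXA11 (0.79), HOXD3 (-0.25) and HOXD8 (0.28) fell short of 2-fold. HOXA4, HOXA6, HOXB3 and HOXC11 also lost their calls at this offset.

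**Figure D3:**
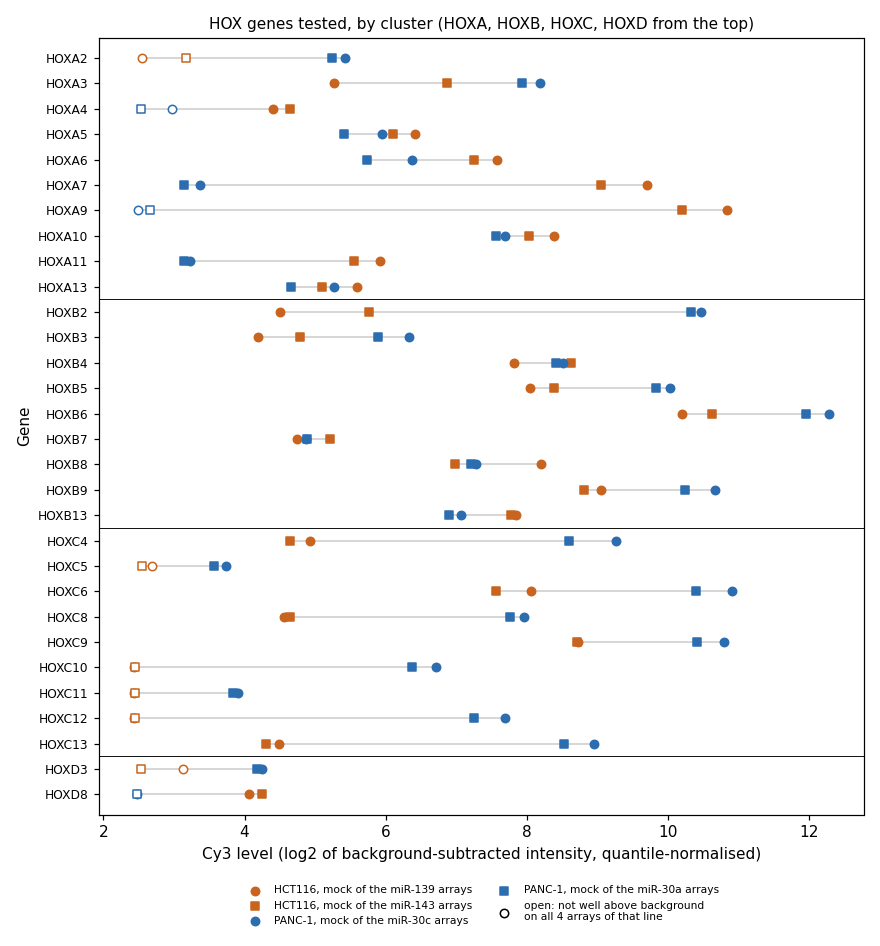
Levels of the 30 HOX genes tested (log2 intensity, x axis) in the 4 mocks, orange for HCT116 and blue for PANC-1, with lines between clusters and open symbols where a gene was not well above background on all 4 arrays of the line. The blue symbols lie to the right for all 9 HOXC genes, and the orange ones lie furthest to the right of the blue for HOXA7 and HOXA9.

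Genes of the tissues of origin were mostly dim. Of 33 intestinal genes, 22 were not well above background in either line, among them HNF4A, VIL1, CDH17 and LGR5. Of the 11 tested, 3 were higher in HCT116 and 4 in PANC-1 (27.3% and 36.4%, against 14.5% and 13.9% of all genes). The counts were 2 and 1 with an offset of 50, and 1 and 2 over the 7 with probes above background on all 8 arrays. The intestinal homeobox factor CDX2 was at 7.79 and 7.51 in HCT116 and at 6.07 and 5.58 in PANC-1 (1.83 ± 0.23). AXIN2, a target and inhibitor of Wnt signalling, was at 6.43 and 6.35 in HCT116, at least 13.6-fold above PANC-1, and the stem cell marker PROM1 was at least 6.05-fold higher, though not called with an offset of 50. The goblet cell peptide TFF3 was at 6.77 and 7.10 in PANC-1 and on no HCT116 array above background (at least 22.5-fold).

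Of 48 pancreatic genes, 26 were not well above background, among them PDX1, PTF1A, insulin (INS) and the trypsinogen PRSS1. Of the 21 tested, 9 were higher in HCT116 and 5 in PANC-1 (42.9% and 23.8%, against 14.5% and 13.9% of all genes). Over the 12 with probes above background on all 8 arrays, 4 were higher in HCT116 and 2 in PANC-1. With an offset of 50 the counts were 3 and 3, and FOXA1, GATA6 and NR5A2, given below, were among those not called. FOXA2, a factor of gut and pancreas development, was at 9.45 and 9.38 in PANC-1 and on no HCT116 array above background (at least 121-fold), whereas its relative FOXA1 was at least 3.91-fold higher in HCT116. GATA4 (at least 13.7-fold) was higher in PANC-1 and GATA6 (1.88 ± 0.38) in HCT116. The mucin MUC1 was at 3.56 and 3.78 in HCT116 and at 7.27 and 7.26 in PANC-1 (-3.59 ± 0.17), and the orphan receptor NR5A2 differed by -2.34 ± 0.18. Among duct genes, carbonic anhydrase CA2 was at 9.83 and 9.62 in HCT116 and at 5.10 and 4.86 in PANC-1 (4.75 ± 0.17).

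Growth factor ligands held some of the largest differences between genes measured in both lines. Of 19 ligands tested, 7 were higher in HCT116 and 3 in PANC-1 (36.8% and 15.8%). Of 27 receptor tyrosine kinases, the counts were 10 and 8 (37% and 29.6%). The shares over all genes were 14.5% and 13.9%. Over the 39 ligands and receptors with probes above background on all 8 arrays, 12 were higher in HCT116 and 10 in PANC-1. The EGF receptor ligand AREG was at 10.97 and 11.89 in HCT116 and at 2.99 and 3.84 in PANC-1 (8.02 ± 0.41, adjusted p = 0.00023). EREG, its neighbour on chromosome 4, was at 10.81 and 11.16 against 2.81 and 3.90 (7.63 ± 0.38). TGFA, another ligand of the same receptor, was higher in PANC-1 (-1.42 ± 0.15). FGF9 (at least 42.3-fold) and FGF19 (at least 15.8-fold) were on no PANC-1 array above background. VEGFC, a ligand for lymphatic vessels, was at 7.41 and 8.59 in PANC-1 and on no HCT116 array above background (at least 47.1-fold).

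The receptor EGFR itself was at 5.85 and 5.72 in HCT116 and at 7.65 and 7.75 in PANC-1 (-1.92 ± 0.15). ERBB3 was higher in HCT116 (3.16 ± 0.24), as were FGFR2 (2.83 ± 0.23) and the insulin receptor INSR (2.40 ± 0.21). ERBB2 was called higher in HCT116 (1.53 ± 0.19) by its brighter probe, while its dimmer probe gave -0.37 ± 0.26. MET was at 11.90 and 11.82 against 11.24 and 11.31, a difference under 2-fold. KITLG, the ligand of KIT, was at 11.40 and 10.55 in HCT116 and at 3.52 and 4.39 in PANC-1 (7.02 ± 0.40).

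Integrins bind cells to matrix. Of 16 tested, 3 were higher in HCT116 and 6 in PANC-1 (18.8% and 37.5%, against 14.5% and 13.9% of all genes). The counts were 2 and 2 with an offset of 50, and 3 and 3 over the 12 with probes above background on all 8 arrays. ITGB4, the hemidesmosome subunit that binds laminin-332, was at 10.19 and 11.04 in HCT116 and at 6.13 and 5.74 in PANC-1 (4.68 ± 0.32). Its partner ITGA6 was at 8.09 and 8.99 against 8.21 and 8.47 and was not called (0.20 ± 0.32). The subunits of vitronectin receptors, ITGAV (-1.62 ± 0.15), ITGB5 (-2.42 ± 0.15) and ITGB3 (at least 5.93-fold), were higher in PANC-1, ITGB3 not with an offset of 50.

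**Figure D4:**
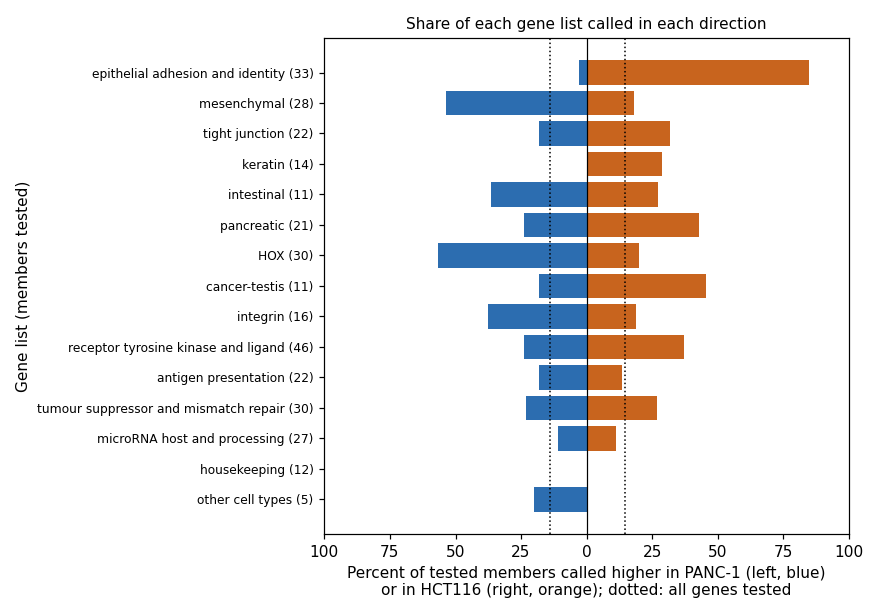
Share of the tested members of each gene list called higher in PANC-1 (blue, to the left) or HCT116 (orange, to the right), in percent on the x axis, with the number tested in brackets and dotted lines at the shares over all genes (13.9% and 14.5%). Epithelial genes lie furthest to the right (84.8%), HOX and mesenchymal genes furthest to the left (56.7% and 53.6%), and no housekeeping gene was called.

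Cancer-testis genes are silent in most adult tissues outside the germ line. Of 39 on the list, 11 were tested, 5 of them higher in HCT116 and 2 in PANC-1 (45.5% and 18.2%, against 14.5% and 13.9% of all genes). The 5 in HCT116 were MAGE genes on no PANC-1 array above background. They passed the filter through HCT116 alone, so that they had to differ and their number is no result about the family, and 11 other MAGE genes were not well above background in either line. Over the 4 cancer-testis genes with probes above background on all 8 arrays, 0 were called higher in HCT116 and 1 in PANC-1 by limma. MAGEA6 was at 12.03 and 12.18 (at least 786-fold), MAGEB2 at 10.93 and 10.97 (at least 356-fold) and MAGEA12 at 9.39 and 9.70 (at least 134-fold). MAGEA genes are near-identical in sequence, so which member a probe measured is uncertain. DDX43, a cancer-testis helicase, was the reverse, at 9.56 and 9.80 in PANC-1 and on no HCT116 array above background (at least 151-fold). PRAME was measured in both lines and higher in PANC-1 (-1.43 ± 0.16).

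Antigen presentation genes were called in about the background share, 3 of 22 higher in HCT116 and 4 in PANC-1. These are 13.6% and 18.2%, against 14.5% and 13.9% of all genes. The 3 in HCT116 were HLA-C, HLA-DMA and HLA-DMB. HLA-DMA and HLA-DMB were not called with an offset of 50. HLA-C was not called without the HCT116 mock of miR-143 or the PANC-1 mock of miR-30c. The immunoproteasome subunit PSMB8 was at 7.15 and 7.82 in PANC-1 and on no HCT116 array above background (at least 32.9-fold). PSMB9, its neighbour, was higher in PANC-1 (-1.99 ± 0.28), as were the peptide trimming enzymes ERAP1 (-1.29 ± 0.17, not called with an offset of 50) and ERAP2 (-1.84 ± 0.27). HLA-E was not called (-0.08 ± 0.11). The class II gene HLA-DRA was at 3.70 and 6.27 in the HCT116 mocks and at the floor in PANC-1 (at least 5.7-fold, adjusted p = 0.0527), and was not called. Without the HCT116 mock of miR-139, HLA-DRA and 3 other HLA genes were called as well, which gave 7 in HCT116.

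Tumour suppressors were examined next. At 9p21, a region that holds CDKN2A and MTAP, MTAP had a mean level of 9.80 in HCT116 and was on no PANC-1 array above background (at least 158-fold). This probe lies at chr9:21865830-21865889 on hg19. A second probe, spanning chr9:21837969-21854648, was also above background on no PANC-1 array (at least 49.1-fold). The third, nearer the start of the gene at chr9:21802766-21815476, was at 7.69 and 6.92 in HCT116 and at 6.68 and 6.64 in PANC-1 and was not called (0.64 ± 0.28). CDKN2A was at 10.22 and 9.73 in HCT116 and at 5.91 and 6.01 in PANC-1 (4.02 ± 0.20) by its brighter probe, and its other probe was above background on no PANC-1 array (at least 36.5-fold). CDKN2B was dim, under the filter in both lines. Before MTAP on the chromosome, FOCAD (1.87 ± 0.13) and KLHL9 (1.44 ± 0.18) were higher in HCT116 and measured in both, and DMRTA1, on the far side of CDKN2A, was at least 2.75-fold higher in PANC-1, though not called with an offset of 50.

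Among mismatch repair genes, MSH3 was at 5.01 and 4.96 in HCT116 and at 7.15 and 7.09 in PANC-1 (-2.13 ± 0.15). MSH6 was not called (-0.86 ± 0.21). The cell cycle inhibitor CDKN1A (p21) was at 5.81 and 7.29 in HCT116 and at 3.70 and 4.09 in PANC-1 (2.65 ± 0.50, adjusted p = 0.0101), with an adjusted p of 0.0751 without the PANC-1 mock of miR-30c and 0.0545 without that of miR-30a, at 2.45 and 2.85. The ubiquitin ligase MDM2 was higher in HCT116 by 1.89 ± 0.28, on 1 of its 3 probes. NF1 was higher in PANC-1 (-1.97 ± 0.17) by its brightest probe and between -0.90 and -0.58 by its other 3. It was not called with an offset of 50 (-0.84) or by the median over probes (-0.90).

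Genes of the miRNA pathway were called in about the background share. Of 27 hosts and processing genes tested, 3 were higher in HCT116 and 3 in PANC-1 (11.1% each, against 14.5% and 13.9% of all genes). DROSHA, DICER1 and AGO2 differed by 0.19 ± 0.11, 0.02 ± 0.13 and 0.16 ± 0.18. DGCR8, the partner of DROSHA, was higher in HCT116 (1.30 ± 0.16), but under 2-fold with an offset of 50 (0.95). LIN28B, which blocks let-7 maturation, was at 7.76 and 8.19 in PANC-1 and on no HCT116 array above background (at least 46.1-fold). The non-coding RNA H19 was at 3.97 and 3.83 in HCT116 and at 9.47 and 8.23 in PANC-1 (-4.95 ± 0.41). PDE2A, which hosts miR-139, was at 5.78 and 7.54 in HCT116 and at 3.76 and 4.99 in PANC-1 (2.29 ± 0.69, adjusted p = 0.0426). It was not called with an offset of 50 (1.12) or without the HCT116 mock of miR-143 (1.4), the PANC-1 mock of miR-30c (1.67) or that of miR-30a (2.90). MIR143HG, the host of miR-143, was not called (0.18 ± 0.21). MIR31HG gave opposite calls, 1.64 ± 0.31 by its brighter probe and -1.26 ± 0.26 by the other.

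The largest differences over all genes were then listed. Among genes measured in both lines, the 10 largest in HCT116 were AREG, EREG, TPD52L1, KITLG, CDH3, GPAT2, TRIP6, LAMB3, HOXA7 and TESC. Of those not described above, TPD52L1 was at 10.23 and 10.43 in HCT116 and at 3.14 and 3.14 in PANC-1 (7.19 ± 0.16). GPAT2 differed by 6.75 ± 0.16, TRIP6, an adaptor at focal adhesions, by 6.70 ± 0.25, and the calcium-binding TESC by 6.05 ± 0.53. In the other direction after VIM, the lipid carrier APOE was at 6.05 and 6.29 in HCT116 and at 13.38 and 13.49 in PANC-1 (-7.27 ± 0.14). CBS, which makes cystathionine, was at 4.06 and 4.85 against 11.92 and 11.48 (-7.25 ± 0.31). The TNF family ligand CD70 (-6.83 ± 0.18), the collagen prolyl hydroxylase P3H2 (-6.49 ± 0.38), PLEKHG2 (-6.24 ± 0.11), PRSS23 (-5.81 ± 0.17), the interferon-induced IFITM1 (-5.79 ± 0.20), YBX2 (-5.73 ± 0.33) and the activin subunit INHBB (-5.72 ± 0.29) were also among the 10.

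Of genes on no PANC-1 array above background, the protease KLK6 had the largest bound in HCT116, with levels of 11.66 and 13.17 (at least 960-fold). GTSF1 (at least 577-fold), the long non-coding RNA UCA1 (at least 466-fold), MAGEA2B (at least 458-fold) and annexin ANXA3 (at least 452-fold) were also among the 10. KLK8 was at 10.86 and 12.21 (at least 518-fold). Kallikreins share a cluster on chromosome 19, and the family was looked up after these values were seen. Of 15 genes, 9 were not well above background in either line. KLK5 to KLK8 and KLK10 passed the filter through HCT116 alone, so the calls among them are a description, with KLK7 at least 146-fold and KLK5 at least 27.5-fold higher. KLK10 was not called (0.93 ± 0.48). KLK1, measured in both lines, was higher in HCT116 (2.32 ± 0.26). Levels were higher in the miR-143 mock than in the miR-139 mock for KLK5, KLK6, KLK7 and KLK8.

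Of genes on no HCT116 array above background, LXN, a carboxypeptidase inhibitor, was at 13.39 and 12.22 in PANC-1 (at least 1315-fold). BASP1 was at 12.09 and 12.15 (at least 820-fold) and the Notch ligand DLL3 at 12.26 and 11.95 (at least 812-fold). The glutathione transferase GSTM3 (at least 440-fold), the calcium channel subunit CACNG6 (at least 329-fold), the neuronal motor KIF1A (at least 324-fold), AGR2 (at least 297-fold), SCCPDH (at least 289-fold), the heat shock protein HSPA1A (at least 217-fold) and the inflammasome adaptor PYCARD (at least 207-fold) completed the 10. HSPA1A has a near-identical copy, so its probe may have measured both.

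Calls were uneven over the chromosomes. On chromosome 8, 30.1% of 684 genes were higher in HCT116 and 7.89% in PANC-1 (median difference 0.43), and on chromosome 4, 24.9% of 662 and 8.16% (0.46). Chromosome 11 was the reverse, with 8.3% of 1109 higher in HCT116 and 20.7% in PANC-1 (-0.27), as was X with 11.3% and 20.2% of 655 (-0.21). Over 280 windows of 10 Mb with at least 20 genes, the highest median was 1.26, at 30 to 40 Mb of chromosome 8, where 27 of 48 genes were higher in HCT116 and 2 in PANC-1. The lowest was -1.09, at 30 to 40 Mb of chromosome 19, where 96 of 180 were higher in PANC-1 and 11 in HCT116. The second highest window lay beside the first (1.02, at 20 to 30 Mb). Genes in a window are not independent of each other, and no test was run over them.

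**Figure D5:**
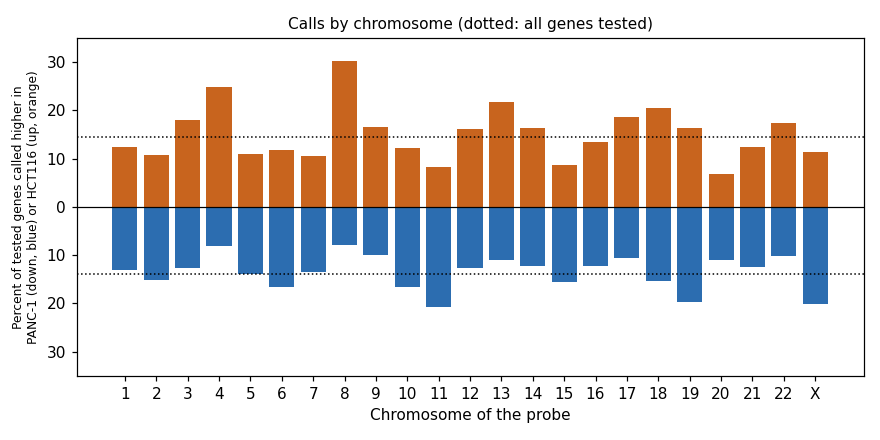
Percent of tested genes on each chromosome (x axis) called higher in HCT116 (orange, up) or in PANC-1 (blue, down), with dotted lines at the shares over all genes. Chromosome 8 has the tallest orange bar (30.1%) and chromosome 11 the longest blue one (20.7%).

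Kinds of transcript differed in how often they were found in 1 line. Of 1209 long non-coding RNAs tested, 12.9% were higher in HCT116 and 18.1% in PANC-1, and 18.4% were well above background in 1 line and on no array of the other. Of 13244 protein-coding genes, these shares were 15.7%, 14.8% and 8.57%. Of 227 small nucleolar RNAs, 25.1% were higher in HCT116 and 14.1% in PANC-1, and 13.7% were found in 1 line only. This last share was 9.92% for 363 transcribed pseudogenes and 12.3% for 4401 names without a match. The kinds were not matched for level, and whether dimmer signals account for these shares was not tested.

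Housekeeping genes were looked at last and were not used to scale the values. Of 12 tested, 0 were called by limma, although 4 had an adjusted p under 0.05 at less than 2-fold. The differences ran from -0.77 for ACTB to 0.56 for YWHAZ, and GAPDH was at 13.62 and 13.65 in HCT116 and at 13.39 and 13.25 in PANC-1 (0.31 ± 0.09).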

How the data were processed

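Per the labels, total RNA was extracted with Trizol and labelled with a linear amplification kit, with mock RNA in Cy3 and miRNA-transfected RNA in Cy5. The deposited scanner output gives each spot's mean intensity and local background median intensity, from Feature Extraction 11.5.1.1 per the file headers. The Cy5 channel and the authors' table of log ratios were not used. The 8 arrays shared a slide and a scan. The median background was 17 to 19 and the median signal above it 4.45 to 6.7. Over 300 probes printed 10 times, the median SD between spots was 0.147 to 0.17 (log2).

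In R 4.3.3 with limma 3.58.1, the background was subtracted, the 8 Cy3 channels were quantile-normalised, outlier spots (38 to 87 per array) were dropped and replicate spots of each probe averaged. Values under the lowest signal of a probe well above background on that array were set to it. The 2 arrays of a mock were averaged, and 2 mocks per line were compared with lmFit and eBayes with a trend. Benjamini-Hochberg adjustment ran over all 25338 probes. Whether mocks were separate cultures is not stated, so p-values measure the spread between these mocks, which may be technical. An exact permutation test of 2 against 2 mocks cannot go below 0.333, so none was used for single genes. The fit was run on simulated data as a check of the code only, which says nothing about single genes here. Names were updated through RefSeq: 31127 probes matched by symbol, 3343 by accession, 496 by synonym, and 23235 kept the name in the files. Probe positions are on hg19. Of 4542 genes with several tested probes, 18 had opposite calls. Promoters were read in Python 3.11.15 from RefSeq sequences, and plots were made with matplotlib 3.10.9.

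Named genes were the 10 largest differences each way among genes above background on all 8 arrays, the 10 largest bounds each way, the markers, KRT80 and HK2, and members of lists with described roles. The members and lists were chosen with earlier results of these data known, so no test over a list is given. Some genes counted in the lists are not reported here by name. Alternatives were normexp with an offset of 50 or 1, scaling to the 75th percentile, the processed signal, other filters, the 8 arrays with the mock as a random block, the median probe, adjusted p alone, the methods' t-test and each mock left out.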

Additional observations from a re-analysis of the deposited data

How the results depend on the processing

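Genes higher in HCT116 and in PANC-1 numbered 1145 and 1144 with normexp at an offset of 50, 1843 and 1698 over the 16169 genes with probes above background on all 8 arrays, 5200 and 4748 with adjusted p alone, and 20 and 17 by the methods' t-test, where 41 genes passed its adjusted threshold at any size and 5070 had an unadjusted p under 0.05. Leaving out each mock in turn gave 2234 to 2985 genes in HCT116 and 2266 to 2795 in PANC-1, the lone mock being assumed to vary like the other line. Under the other 6 alternatives the counts were 2587 to 3002 and 2453 to 2918. A set of 210 named genes, 209 called genes and KRT80, was followed through the alternatives, so only KRT80 could gain a call. Uncalled genes such as HLA-DRA, which some alternatives called, were not in this set. Over the set, 2854 comparisons gave 2502 unchanged calls, 348 lost, 1 gained and 3 reversed directions. The reversed values were -0.37 for ERBB2 and -1.26 for MIR31HG with the median over probes, and 0.83 for KRT80 without the HCT116 mock of miR-139. The gained call was KRT80 without the HCT116 mock of miR-143 (-1.5). The methods' t-test, which pools no spread between genes, accounted for 209 of the lost calls, so that no called gene among the 210 kept its call under it, and the offset of 50 for 66. The cause of the other changes was not tested. No paired analysis was possible because the labels give the mocks of the lines no shared replicate numbers. With 2 mocks per line the array signal near the floor limits what can be called in dim genes.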
